A study of Mus musculus with 4 samples.

Results

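C3, its regulators and the complement receptors of myeloid cells were followed as 6 genes (C3, Cfb, Cfp, C3ar1, C5ar1 and Vsig4) through 4 single-cell RNA libraries of the mouse joint in serum-transfer arthritis. They are named for their place in complement. The rule that lists them uses no measured value, but the members were chosen with earlier results of these data known. All 6 were listed in all 4 libraries, which share 11195 genes of the 13036 listed in at least 1.

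Complement is a cascade of plasma and locally made proteins that tags surfaces and draws in leukocytes. C3 is its central protein. In the alternative pathway a fragment of C3 binds factor B, encoded by Cfb, to form the enzyme that cleaves more C3, and properdin, encoded by Cfp, stabilizes that enzyme. The small fragments released from C3 and C5 act on the receptors C3ar1 and C5ar1 of myeloid cells. Vsig4, also called CRIg, is a receptor of tissue macrophages that binds C3 fragments on particles and blocks the alternative pathway enzyme. Arthritis caused by K/BxN serum, which carries autoantibodies, needs the alternative pathway and the C5 fragment C5a in mice.

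The cells were CD45+CD11b+Ly6G- mononuclear cells sorted from synovium, the joint lining, of hind paws. The mice were Cx3cr1creER:tdTomato mice, in which tamoxifen switches on a red reporter in cells that use the Cx3cr1 promoter and leaves it on in their descendants. Per the labels' protocols all had tamoxifen 4 weeks before the serum, so the day 0 cells, taken at steady state with no serum, come from reporter mice as well. The other groups were taken on days 1, 2 and 5 after the serum, and the number, age and sex of the mice in a library are not given. Each day has 1 library, so day and library cannot be told apart and no p-value is given: differences between days lack replicates.

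Barcodes were kept when they had 500 genes or more and less than 10% of UMIs (unique molecular identifiers, counted once per captured transcript) from mitochondrial genes, which left 3715, 4642, 2722 and 3235 barcodes at days 0, 1, 2 and 5. The day 0 library stood apart in depth. Its retained barcodes held a median of 1057 UMIs, against 3607.5, 4183.5 and 3897 on the later days, and 3760 of its 7542 barcodes had under 500 genes. A total of 156 of 18081 barcode sequences occurred in more than 1 library. Summed UMIs are given as CPM (counts per 1000000 UMIs of the same barcodes) with an exact Poisson 95% interval, which covers counting error only. Comparisons count a gene as higher or lower from 2-fold, among genes with at least 10 CPM in 1 of the groups compared. The 5 general macrophage genes of a fixed list (Ptprc, Itgam, Csf1r, Adgre1 and Cd68) were listed on every day, and the neutrophil genes Ly6g, Retnlg and Ngp on none.

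The upstream sequences of the gene whose level differed most between days, C3, and of the 2 members whose levels went together across cell groups, C3ar1 and Vsig4, are shown from RefSeq on GRCm38.p6, each from 250 bases before to 50 bases after the annotated start. All 3 genes lie on the minus strand. The C3 sequence is chr17:57228087-57228386, the C3ar1 sequence chr6:122856108-122856407 and the Vsig4 sequence chrX:96293389-96293688. Capitals mark matches, on either strand, to TTGCNNAA (C/EBP type), GGG, any 2 bases and TTTCC (NF-kB type), TGANTCA (AP-1 type), GAGGAAG (PU.1 type) and GAAA, any 2 bases and GAAA (IRF type).
C3: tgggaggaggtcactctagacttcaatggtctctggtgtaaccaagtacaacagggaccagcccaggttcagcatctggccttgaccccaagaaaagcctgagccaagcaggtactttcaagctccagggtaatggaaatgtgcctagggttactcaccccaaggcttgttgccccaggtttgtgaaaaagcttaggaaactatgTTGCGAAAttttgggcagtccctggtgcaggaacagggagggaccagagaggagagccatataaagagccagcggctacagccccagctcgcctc
C3ar1: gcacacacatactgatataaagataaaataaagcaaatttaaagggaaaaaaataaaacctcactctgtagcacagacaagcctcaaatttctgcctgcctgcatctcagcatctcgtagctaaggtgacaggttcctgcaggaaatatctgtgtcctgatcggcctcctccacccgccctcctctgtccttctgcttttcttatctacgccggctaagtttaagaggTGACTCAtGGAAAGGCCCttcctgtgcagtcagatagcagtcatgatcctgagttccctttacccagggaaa
Vsig4: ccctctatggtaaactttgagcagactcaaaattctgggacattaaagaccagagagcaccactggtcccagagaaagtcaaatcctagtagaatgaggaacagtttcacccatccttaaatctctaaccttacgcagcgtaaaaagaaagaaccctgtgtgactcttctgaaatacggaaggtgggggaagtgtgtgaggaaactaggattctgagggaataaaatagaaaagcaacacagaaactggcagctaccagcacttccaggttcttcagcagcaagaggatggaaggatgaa
C3 held 1 match, the C/EBP type TTGCGAAA starting 45 bases before the start, letters found in 10.8% of 32851 promoters of the same length. C3ar1 held TGACTCA of the AP-1 type starting 22 bases before its start, found in 7.81% of promoters. It also held GGAAAGGCCC, the NF-kB type read on the other strand, starting 14 bases before the start, found in 1.63%. The Vsig4 window held no match to these letters, and neither did those of Cfp and C5ar1. The other letters were found in 13.6% (PU.1 type) and 3.44% (IRF type) of promoters. A match is a description of letters, and its use in these cells was not measured.

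C3 transcripts were scarce until day 5, when their level was 6.29- to 9.89-fold that of the earlier days. The level was 2.3 CPM on day 0 (1.10 to 4.23, 10 UMIs), 3.54 CPM on day 1 (2.73 to 4.51, 65 UMIs), 3.62 CPM on day 2 (2.63 to 4.86, 44 UMIs) and 22.7 CPM on day 5 (20.4 to 25.3, 339 UMIs). The intervals of days 0, 1 and 2 overlapped one another, and that of day 5 lay above all of them. C3 was 9.89-fold higher on day 5 than on day 0 (5.31 to 20.8), 6.43-fold higher than on day 1 (4.92 to 8.52) and 6.29-fold higher than on day 2 (4.58 to 8.81). On day 5 the UMIs lay in 238 of 3235 barcodes, with at most 13 in 1 barcode, while on day 0 each of the 10 UMIs lay in a barcode of its own.

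Cfb was scarce on all 4 days. It stood at 5.29 CPM on day 0 (3.35 to 7.94, 23 UMIs), 4.68 CPM on day 1 (3.74 to 5.78, 86 UMIs), 2.96 CPM on day 2 (2.07 to 4.10, 36 UMIs) and 3.89 CPM on day 5 (2.96 to 5.03, 58 UMIs). The 4 intervals overlapped one another, and no level reached the 10 CPM of the comparisons. The largest difference was between days 2 and 0, with a ratio of 0.560 (0.323 to 0.989).

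Cfp was highest on day 5 and lowest on day 0. Its levels were 149 CPM on day 0 (137 to 161), 208 CPM on day 1 (201 to 215), 181 CPM on day 2 (174 to 189) and 306 CPM on day 5 (297 to 315), with no overlap between intervals. Day 5 was 2.06-fold higher than day 0 (1.89 to 2.24), which was just past the 2-fold limit. The ratio was 1.936 with median-ratio scaling and 1.996 with a 5% mitochondrial limit, both short of it, and 1.47 against day 1 (1.41 to 1.54).

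The 3 receptors had their lowest levels on day 5. Vsig4 stood at 1435 CPM (1400 to 1471), 1490 CPM (1472 to 1508), 1756 CPM (1733 to 1780) and 945 CPM (930 to 961) at days 0, 1, 2 and 5. C3ar1 stood at 431 CPM (412 to 451), 429 CPM (419 to 438), 483 CPM (471 to 496) and 325 CPM (315 to 334). The days 0 and 1 of C3ar1 overlapped, whereas day 2 was the highest and day 5 the lowest for both genes. C5ar1 stood at 533 CPM (512 to 555), 476 CPM (466 to 486), 536 CPM (524 to 550) and 390 CPM (380 to 400), with days 0 and 2 overlapping. Day 5 to day 0 ratios were 0.659 for Vsig4 (0.639 to 0.679), 0.752 for C3ar1 (0.713 to 0.794) and 0.731 for C5ar1 (0.697 to 0.767), all within 2-fold.

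**Figure D1:**
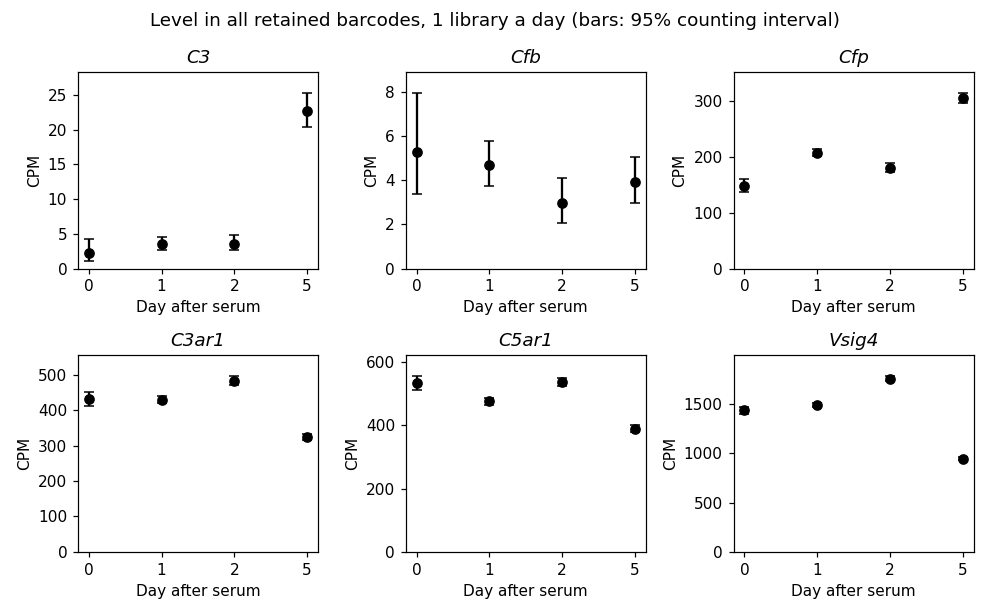
CPM of the 6 genes (y axis, linear, from 0) by day after serum (x axis) over all retained barcodes of 1 library a day, where points are levels and bars 95% Poisson intervals. C3 stands at 22.7 CPM on day 5 against 2.3 to 3.62 CPM before, Cfp is highest on day 5, and the receptors C3ar1, C5ar1 and Vsig4 are lowest there.

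Read against all genes, 2 of the 5 members with at least 10 CPM were called higher on day 5 than on day 0 (C3 and Cfp) and none lower, where 6.43% of 7419 genes were higher and 3.34% lower. On day 1 none of 4 members was 2-fold from day 0, with 2.57% of 7354 genes higher and 2.41% lower. On day 2 none of 4 was either, with 2.77% of 7320 genes higher and 2.98% lower. Day 5 against day 1 called C3 alone among 5 members, with 3.71% of genes higher and 1.25% lower, and day 5 against day 2 likewise, with 4.11% higher and 1.07% lower. These comparisons with day 0 share its library, and those of day 5 share the day 5 library. The median log2 ratio to day 0 over all genes tested was 0.15, 0.14 and 0.11 at days 1, 2 and 5.

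Barcodes were next grouped by whether they held at least 1 UMI of Sparc, Cd163, H2-Aa, Plac8 or Spp1. Sparc marks lining macrophages of this joint, Cd163 interstitial macrophages, H2-Aa is a chain of MHC class II, Plac8 is high in blood monocytes, and Spp1 is a gene of wound-type macrophages. The groups overlap: of the day 5 barcodes 264 held none of the 5 markers, 1281 held 1, 1222 held 2, and 468 held more. Other genes of each fixed marker list were checked in the same barcodes. The 4 other class II genes were at least 2-fold higher in H2-Aa-positive barcodes on all 4 days. Of 5 other lining genes, Olfml3, Cx3cr1 and Trem2 were higher in Sparc-positive barcodes on days 1, 2 and 5 and none on day 0. Not all of that list went the same way: its lowest ratio was 0.595, 0.704 and 0.811 at days 1, 2 and 5. All 5 other monocyte genes were higher in Plac8-positive barcodes on day 5, while the day 0 group held only 32 barcodes. Of 5 other interstitial genes, 0, 1, 1 and 5 were higher in Cd163-positive barcodes at days 0, 1, 2 and 5, and of 3 other genes listed with Spp1, 0, 2, 1 and 1 were. On day 0, then, a Sparc, Cd163 or Spp1 UMI did not set apart barcodes with the other genes of its list. Cd163 did little more on days 1 and 2, when Retnla alone was higher. The lowest ratio of its list was then 1.03 and 1.06, and 0.23% and 0.369% of all genes were higher in Cd163-positive barcodes. Ratios to day 0 within these groups therefore set a less separated day 0 group against later ones.

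The Sparc-positive share of barcodes was 51.5% on day 0, 36.9% on day 1, 46.5% on day 2 and 28.3% on day 5, and the Plac8-positive share 0.861%, 1.27%, 1.91% and 25.5%. The Spp1-positive share was 9.53%, 9.09%, 14.1% and 33.9%. Day 5 thus held more barcodes with Plac8 or Spp1 and fewer with Sparc, so the levels below were taken within these groups. Finding a marker UMI depends on depth, which was lowest on day 0.

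C3 was most frequent in Plac8-positive barcodes on each day after serum. Its level there was 0 of 38681 UMIs on day 0 (a floor of 77.6 CPM for 3 counts), 49.9 CPM on day 1 (25.8 to 87.2, 12 UMIs), 78.0 CPM on day 2 (46.2 to 123, 18 UMIs) and 51.4 CPM on day 5 (44.4 to 59.2, 194 UMIs). The 3 intervals after serum overlapped, so the level within this group was not seen to differ between days 1, 2 and 5. In Plac8-negative barcodes C3 stood at 2.32 CPM on day 0, 2.92 CPM on day 1, 2.18 CPM on day 2 and 13.03 CPM on day 5 (11 to 15.3, 145 UMIs). The day 5 level of the negative barcodes lay above the intervals of the other days, which reached up to 4.27 CPM. Of its 145 UMIs 54 lay in 10 of the 2409 barcodes, with at most 13 in 1, so the interval, which takes UMIs as independent, is too narrow. Positive barcodes were 17.1-fold higher than negative ones on day 1 (8.31 to 32.4), 35.8-fold on day 2 (18.5 to 67.8) and 3.94-fold on day 5 (3.16 to 4.92).

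On day 5 the Plac8-positive barcodes held 57.2% of the C3 UMIs and 25.3% of all UMIs. C3 was found in 146 of these 826 barcodes (17.7%, 15.1 to 20.5, Clopper-Pearson) and in 92 of the 2409 others, at a median of 3893.5 and 3897 UMIs per barcode. With every barcode thinned to 500 UMIs the share of the positive ones was 2.66% (1.68 to 4.00), and that over all barcodes was 0.108%, 0.194%, 0.220% and 1.14% at days 0, 1, 2 and 5. By the number of Plac8 UMIs, C3 on day 5 stood at 13.03 CPM with 0, 24.9 CPM with 1, 45.3 CPM with 2 to 4 and 68.9 CPM with 5 or more. Each step was upward, and neighbouring intervals overlapped from 1 Plac8 UMI on. The known monocyte genes Ly6c2, Chil3, Hp, Vcan and Ccr2 were 31.7-, 20.3-, 33.0-, 4.53- and 4.05-fold higher in the same barcodes on day 5.

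Other groups held C3 on day 5 as well. Its level was 24.7 CPM in Spp1-positive (20.9 to 29.0), 21.8 CPM in H2-Aa-positive (18.7 to 25.3), 11.7 CPM in Sparc-positive (8.73 to 15.3) and 7.33 CPM in Cd163-positive barcodes (4.79 to 10.7). The order Plac8, Spp1, H2-Aa, Sparc, Cd163 held apart between Plac8 and Spp1 and between H2-Aa and Sparc, while Spp1 and H2-Aa overlapped, as did Sparc and Cd163. Splitting these groups by Plac8, C3 stood at 41.0 CPM in barcodes with both Spp1 and Plac8 and 19.3 CPM with Spp1 alone of the pair. It stood at 41.8 CPM with both H2-Aa and Plac8 and 14.1 CPM with H2-Aa alone of the pair. Sparc-positive barcodes without Plac8 stood at 8.16 CPM (5.62 to 11.5, 33 UMIs). In barcodes with only 1 of the 5 markers C3 stood at 84.6 CPM for Plac8 (71 UMIs), 29.6 CPM for Spp1 (25 UMIs), 19.5 CPM for H2-Aa (31 UMIs) and 7.59 CPM for Sparc (10 UMIs). Barcodes with Cd163 alone held 0 of 339 C3 UMIs on day 5, below a floor of 4.21 CPM, and those with no marker held 12, or 12.0 CPM (6.22 to 21.0).

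Within H2-Aa-positive barcodes C3 was 8.46-fold higher on day 5 than on day 0 (4.02 to 21.4), against 7 UMIs on day 0. The Sparc-, Cd163- and Spp1-positive groups held 2, 1 and 1 C3 UMIs on day 0. Their ratios were 13.6 (3.57 to 115), 7.91 (1.30 to 324) and 10.8 (1.90 to 428). Each of these 4 intervals lay above 1, and none is narrow enough to order the groups. The groups also share barcodes. On day 5, 33 of the 52 C3 UMIs of Sparc-positive barcodes lay in those without Plac8, and barcodes with Cd163 as their only marker held no C3 UMI. Plac8-positive barcodes, with 0 C3 UMIs on day 0, give no such ratio.

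Fibroblasts are known to make C3, and their transcripts were present. The summed level of their 6 list genes was 43.2, 120, 88.7 and 95.1 CPM at days 0, 1, 2 and 5, with Pdgfra unlisted at days 0 and 2. C3 in the 139 day 5 barcodes with such a UMI stood at 55.01 CPM (36 UMIs), and at 21.3 CPM in the barcodes with none (303 UMIs). Neutrophil list genes summed to 20.01, 11.9, 14.6 and 46.6 CPM, with S100a9 listed on day 5 only, and 12 of the 339 day 5 UMIs lay in the 44 barcodes with at least 3 of their UMIs. Without both kinds of barcode the day 5 to day 0 ratio of C3 was 10.95, and C3 on day 5 stood at 49.6 CPM in Plac8-positive (42.5 to 57.6) and 11.3 CPM in Plac8-negative barcodes (9.36 to 13.5). The day 1 and day 2 levels in Plac8-positive barcodes were then 47.9 CPM (10 UMIs) and 56.5 CPM (11 UMIs). Haemoglobin transcripts, listed on days 1, 2 and 5 at 29.2, 5.18 and 161 CPM, also had their highest level on day 5, and their part in the result was not tested.

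Cfb had few UMIs in any group, and on day 1 most of them lay in Cd163-positive barcodes. These barcodes held 46.2% of all UMIs of that day. Cd163-positive barcodes held 4 of 23 Cfb UMIs on day 0, 56 of 86 on day 1, 20 of 36 on day 2 and 20 of 58 on day 5, or 3.71 CPM (1.01 to 9.49), 6.59 CPM (4.98 to 8.56), 3.82 CPM (2.33 to 5.89) and 5.64 CPM (3.44 to 8.71). On day 1 this was apart from the next group, Sparc-positive barcodes with 3.43 CPM (2.28 to 4.95), and on day 5 all neighbouring groups overlapped. Barcodes with Cd163 and no other marker held 33 of the 86 day 1 UMIs in 14.6% of all UMIs (12.3 CPM, 8.46 to 17.3), 10 of 36 in 11.8% on day 2 (6.98 CPM, 3.35 to 12.8) and 13 of 58 in 4.78% on day 5 (18.3 CPM, 9.72 to 31.2). On days 1 and 5 these intervals lay above the level of the whole library. Plac8-positive barcodes held 24 of the 58 day 5 UMIs (6.36 CPM, 4.07 to 9.46) and 0 of 86 on day 1, under a floor of 12.5 CPM. In barcodes with a fibroblast list UMI Cfb stood at 30.5 CPM on day 0 (8.32 to 78.1, 4 UMIs) and 13.8 CPM on day 1 (8.20 to 21.9, 18 UMIs). Barcodes with none stood at 4.51 CPM (2.71 to 7.04) and 3.98 CPM (3.09 to 5.05), and on days 2 and 5 the intervals overlapped. The part of fibroblast transcripts in the Cfb levels was not tested.

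Cfp was low where Sparc was found. Sparc-positive barcodes stood at 140 CPM on day 0 (124.8 to 156), 92.2 CPM on day 1 (85.8 to 99.1), 98.4 CPM on day 2 (90.9 to 106) and 115 CPM on day 5 (105 to 125). Sparc-negative barcodes stood at 159, 301, 274 and 387 CPM. The groups overlapped on day 0 and were apart on each later day, with positive to negative ratios of 0.879 (0.751 to 1.03), 0.307 (0.283 to 0.332), 0.359 (0.327 to 0.394) and 0.296 (0.269 to 0.325). By the number of Sparc UMIs, Cfp on day 5 stood at 387 CPM with 0, 270 CPM with 1, 122 CPM with 2 to 4 and 71.0 CPM with 5 or more, a fall at every step with no overlap.

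H2-Aa went with higher Cfp. H2-Aa-positive barcodes stood at 168, 284, 251 and 377 CPM at days 0, 1, 2 and 5 and negative ones at 116, 158, 136 and 224 CPM, with ratios of 1.45 (1.22 to 1.73), 1.79 (1.68 to 1.91), 1.84 (1.69 to 2.00) and 1.68 (1.58 to 1.79). The difference on day 5 lay in barcodes with 5 or more H2-Aa UMIs, at 512 CPM (490 to 534), against 224 to 242 CPM in those with 0, 1 and 2 to 4. Plac8-positive barcodes reached 465 CPM on day 5 (443 to 487) after 271 CPM (209 to 345) and 221 CPM (165 to 291) at days 1 and 2. The order on day 5 was Plac8, H2-Aa, Spp1 (283 CPM), Cd163 (250 CPM) and Sparc, with no overlap between neighbours. On day 1 the Plac8 interval overlapped those of H2-Aa and Cd163, which were apart from each other. Within H2-Aa-positive barcodes Cfp was 2.24-fold higher on day 5 than on day 0 (2.03 to 2.48), within Spp1-positive ones the ratio was 1.81 (1.42 to 2.34), within Cd163-positive ones 1.51 (1.28 to 1.78), and within Sparc-positive ones 0.821 (0.713 to 0.946). The Plac8-positive ratio of 5.99 (2.05 to 29.1) rests on 3 UMIs on day 0. The Sparc-, Cd163- and Spp1-positive groups of day 0 were not set apart by their lists, and the part of this in the ratios was not tested.

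**Figure D2:**
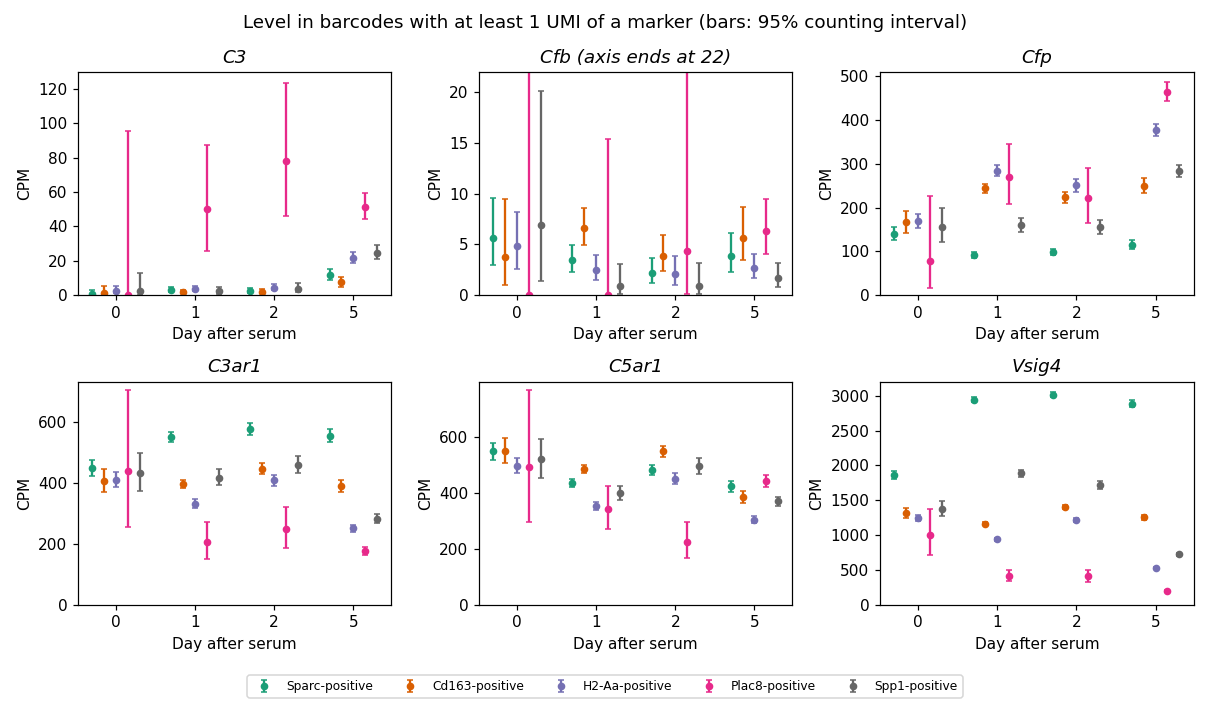
CPM of the 6 genes (y axis, linear, from 0) by day after serum (x axis) in barcodes with at least 1 UMI of each of 5 markers (colours), with 95% Poisson intervals; intervals of the small Plac8-positive group at days 0 to 2 are wide, and 2 of them run past the Cfb axis. After serum C3 is highest with Plac8, Cfp is lowest and Vsig4 highest with Sparc (2890 CPM on day 5), and C5ar1 differs less between groups than the receptors C3ar1 and Vsig4 on day 5.

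Vsig4 was the member most tied to Sparc. Sparc-positive barcodes stood at 1858 CPM on day 0 (1803 to 1914), 2946 CPM on day 1 (2908 to 2983), 3019 CPM on day 2 (2977 to 3062) and 2890 CPM on day 5 (2840 to 2941). Sparc-negative barcodes stood at 951, 323, 333 and 117 CPM on those days. The positive level was above the negative one on every day, by a ratio of 1.95 on day 0 (1.85 to 2.06), 9.12 on day 1 (8.79 to 9.46), 9.07 on day 2 (8.66 to 9.52) and 24.7 on day 5 (23.3 to 26.2). Where Sparc was instead looked for among 500 UMIs of each barcode, so that depth was alike, the ratios were 1.751, 4.37, 3.69 and 7.512. With 0, 1, 2 to 4 and 5 or more Sparc UMIs, Vsig4 on day 5 stood at 117, 460, 2689 and 3590 CPM.

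Other groups were lower and their order was apart at every step on day 5. Vsig4 then stood at 1258 CPM in Cd163-positive (1221 to 1295), 725 CPM in Spp1-positive (703 to 747), 523 CPM in H2-Aa-positive (508 to 540) and 192 CPM in Plac8-positive barcodes (178 to 206). In barcodes with H2-Aa alone of the 5 markers it was 86.4 CPM (72.5 to 102) and in those with Plac8 alone 23.8 CPM (14.6 to 36.8), against 3383 CPM with Sparc alone (3284 to 3483). The level within Sparc-positive barcodes was not lower on day 5 than on day 0, with a ratio of 1.56 (1.503 to 1.61), and within Cd163-positive ones the ratio was 0.958 (0.902 to 1.02). It was 0.421 (0.402 to 0.441) within H2-Aa-positive, 0.527 (0.484 to 0.575) within Spp1-positive and 0.190 (0.138 to 0.269) within Plac8-positive barcodes. On day 0 no other list gene was 2-fold higher in Sparc-, Cd163- or Spp1-positive barcodes, while some were on day 5. The part of this difference in group make-up in the ratios was not tested. The Vsig4 level over all barcodes on day 5, 0.659 of that on day 0, went with a Sparc-positive share of 28.3% against 51.5%, and fewer cells of a type and less RNA per cell cannot be told apart in such sums.

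Shares of barcodes with a Vsig4 UMI were lowest on day 5. Thinned to 500 UMIs they were 44.7% (43.1 to 46.4) on day 0, 27.5% (26.2 to 28.8) on day 1, 32.2% (30.5 to 34.0) on day 2 and 19.6% (18.2 to 21.0) on day 5, and unthinned 67.0%, 45.3%, 54.4% and 33.5%. Day 0 had the highest share but not the highest level, so no order is read among days 0, 1 and 2. In Sparc-positive barcodes the thinned shares were 54.5%, 54.1%, 55.4% and 56.5%, with intervals that overlapped on all days. Barcodes with Plac8 alone, monocyte-type barcodes, were taken as a background for this macrophage receptor. They gave 3 of 220 on day 5 (1.36% thinned, 8.64% unthinned), with a median of 3650 UMIs against 4437 in Sparc-positive ones. On day 5 the Sparc-positive share, 56.5%, lay far above that background. The background barcodes were chosen to hold no Sparc, Cd163, H2-Aa or Spp1 UMI, so part of this contrast was set by that choice. No such background was set for the other days, and on day 0 barcodes with none of the 5 markers stood at 1212 CPM of Vsig4.

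C3ar1 followed the same groups with smaller differences. Sparc-positive barcodes stood at 447, 549, 576 and 554 CPM at days 0, 1, 2 and 5 and Sparc-negative ones at 413, 333, 379 and 227 CPM. Their ratio was 1.08 on day 0 (0.986 to 1.19), 1.65 on day 1 (1.58 to 1.73), 1.52 on day 2 (1.44 to 1.60) and 2.45 on day 5 (2.31 to 2.59). On day 5 the order was Sparc (533 to 577 CPM), Cd163 (368 to 409), Spp1 (269 to 296), H2-Aa (239 to 261) and Plac8 (164 to 191), with no neighbours overlapping. Between day 0 and day 5 the ratio was 1.24 within Sparc-positive barcodes (1.15 to 1.34), 0.958 within Cd163-positive (0.860 to 1.07), 0.653 within Spp1-positive (0.561 to 0.763), 0.610 within H2-Aa-positive (0.567 to 0.657) and 0.402 within Plac8-positive ones (0.249 to 0.694, against 17 UMIs on day 0). These ratios carry the same limit of the day 0 groups as those of Vsig4.

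C5ar1 was the most even of the receptors on day 5. It then stood at 442 CPM in Plac8-positive (421 to 464), 423 CPM in Sparc-positive (404 to 442), 384 CPM in Cd163-positive (364 to 405), 369 CPM in Spp1-positive (353 to 385) and 304 CPM in H2-Aa-positive barcodes (292 to 316). Neighbours from Plac8 to Spp1 overlapped, and H2-Aa lay below them. Sparc-positive to Sparc-negative ratios were 1.06, 0.858, 0.803 and 1.13 at days 0, 1, 2 and 5. In Plac8-positive barcodes C5ar1 stood at 341 CPM on day 1 (271 to 424), 225 CPM on day 2 (168 to 295, 52 UMIs) and 442 CPM on day 5, so its day 2 level lay below that of day 5. Barcodes with Cd163 alone of the 5 markers held 643 CPM on day 1 (613 to 674) and 736 CPM on day 2 (692 to 782), above the 476 and 536 CPM of the whole libraries, and 497 CPM on day 5 (447 to 552). From day 0 to day 5 its ratio lay between 0.612 (H2-Aa) and 0.901 (Plac8) within the 5 groups.

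**Figure D3:**
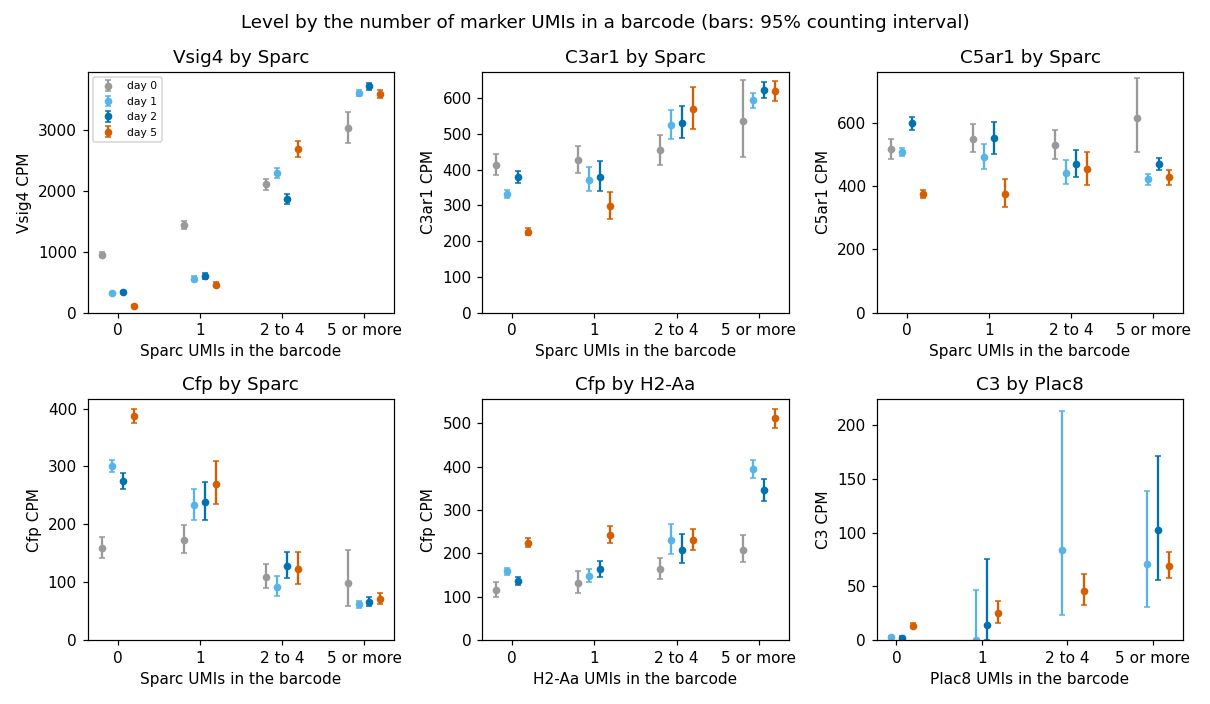
CPM of members (y axes, linear, from 0) by the number of marker UMIs in a barcode (x axis) for days 0, 1, 2 and 5 (colours), with 95% Poisson intervals; the C3 panel leaves out day 0, which held no C3 UMI in Plac8-positive barcodes. Vsig4 and C3ar1 go up and Cfp goes down with Sparc UMIs after serum, C5ar1 changes little, Cfp is highest with 5 or more H2-Aa UMIs, and C3 goes up with Plac8 UMIs to 68.9 CPM on day 5.

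Counted over members, Sparc split them into those higher and those lower in its barcodes. On day 1 Vsig4 was higher and Cfp lower of 4 members with at least 10 CPM, where 2.56% of all genes were higher and 2.62% lower, and on day 2 the same 2 genes, where 2.47% were higher and 2.36% lower. On day 5 Vsig4 and C3ar1 were higher and Cfp and C3 lower of 5 members, where 6.72% were higher and 5.19% lower. The C3 ratio there was 0.425 (0.310 to 0.573) and 0.6572 where Sparc was looked for among 500 UMIs, so that call was lost. Plac8-positive barcodes had C3 higher, and Vsig4 and C3ar1 lower, of 5 members on day 1 (9.18% of genes higher, 13.2% lower). They had C3 higher and Vsig4 and C5ar1 lower on day 2 (9.09% and 13.5%), and C3 higher and Vsig4 and C3ar1 lower on day 5 (4.51% and 11.3%).

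**Figure D4:**
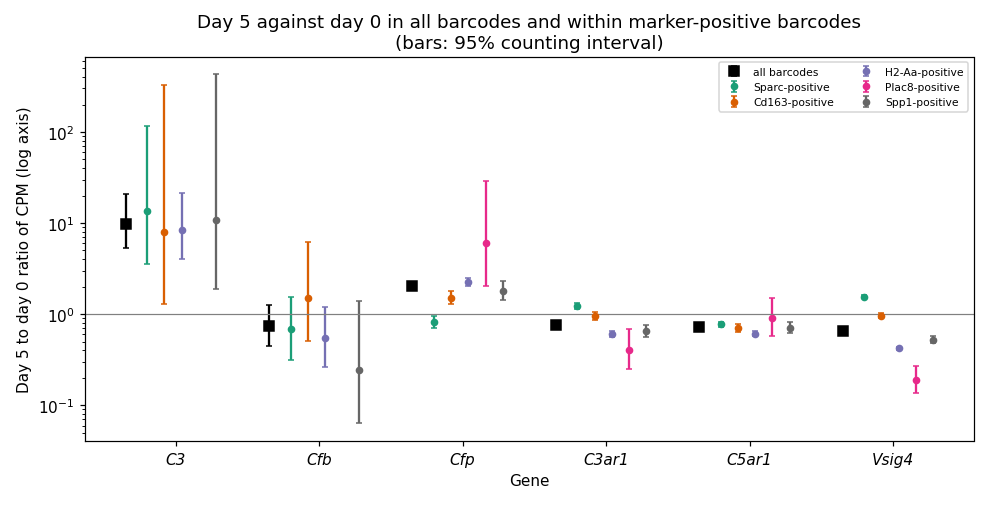
Ratio of CPM on day 5 to day 0 (y axis, log scale) for each gene (x axis) over all barcodes (squares) and within barcodes positive for each marker (circles), with exact conditional 95% intervals and a line at a ratio of 1; points with 0 UMIs on day 0 are left out. C3 lies above 1 in every group shown, Cfp is above 1 except with Sparc (0.821), and Vsig4 runs from 1.56 with Sparc to 0.190 with Plac8. The groups share barcodes, and those with Cd163 as their only marker held no C3 UMI on day 5. On day 0 the Sparc, Cd163 and Spp1 groups were not set apart by the other genes of their lists.

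Levels over the 20 combinations of day and marker-positive group were also set against those of 7249 other genes, as log2(CPM + 5). These points share 4 libraries, and groups of 1 library share barcodes, so a correlation is given as a description. The genes most like C3 were Gpr35 (r = 0.970), Pi16 (0.968) and Lst1 (0.963). Most like Vsig4 were Enpp1 (0.989), Syngr1 (0.976) and C3ar1 (0.970), and most like C3ar1 were Bin1 (0.973), Vsig4 (0.970) and Gpr34 (0.961). For Cfp they were Lsr (0.921), Fgl2 (0.900) and Scimp (0.894), for C5ar1 Ino80c (0.887), Emc7 (0.844) and Prrg2 (0.833), and for Cfb, whose counts are sparse, Eml4 (0.777), Rab24 (0.711) and Golph3 (0.702). Among the members, C3 and C3ar1 had r = -0.823, Cfp and C3ar1 r = -0.813, and C3 and Cfp r = 0.599.

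The wider pathway was read from a list of 43 complement genes, of which 25 were listed in all 4 libraries. On day 5, 3 of 17 measured were higher than on day 0 (C3, Cfp and Itgax, where 6.43% of all genes were) and 0 lower (3.34%), with a median log2 ratio of -0.16 beside 0.11 over all genes. On day 1, 2 of 15 were higher (Colec12 and Itgam, where 2.57% of all genes were) and 1 lower (C5ar2, 2.41%), with a median of 0.32 beside 0.15, and on day 2, 0 of 15 were higher (2.77% of all genes) and 1 lower (C5ar2, 2.98%), with 0.35 beside 0.14. Median-ratio scaling left 0 genes higher on day 1 and 2 on day 5.

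Itgam and Itgax encode the alpha chains of the complement receptors CR3 and CR4. Itgam stood at 116, 237, 224 and 209 CPM, and Itgax at 5.52, 8.71, 7.16 and 15.8 CPM with a day 5 ratio of 2.87 (1.88 to 4.57). Colec12, a scavenger lectin, stood at 42.6, 88.6, 78.2 and 40.0 CPM. C5ar2, the second receptor of the C5 fragment, stood at 16.3 CPM on day 0 (71 UMIs), 4.95 CPM on day 1 (91 UMIs), 4.85 CPM on day 2 (59 UMIs) and 8.46 CPM on day 5 (126 UMIs). Its ratio to day 0 was 0.303 (0.220 to 0.420) on day 1 and 0.297 (0.207 to 0.426) on day 2, so C5ar2 was lower on both days while C5ar1 had ratios of 0.892 and 1.01. The summed level of the osteoclast list (Acp5, Ctsk and Mmp9) was 923, 229, 301 and 1107 CPM on days 0, 1, 2 and 5, also lowest on days 1 and 2, and its part in the C5ar2 result was not tested. Of the terminal pathway none of 6 genes was listed on day 0.

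**Figure D5:**
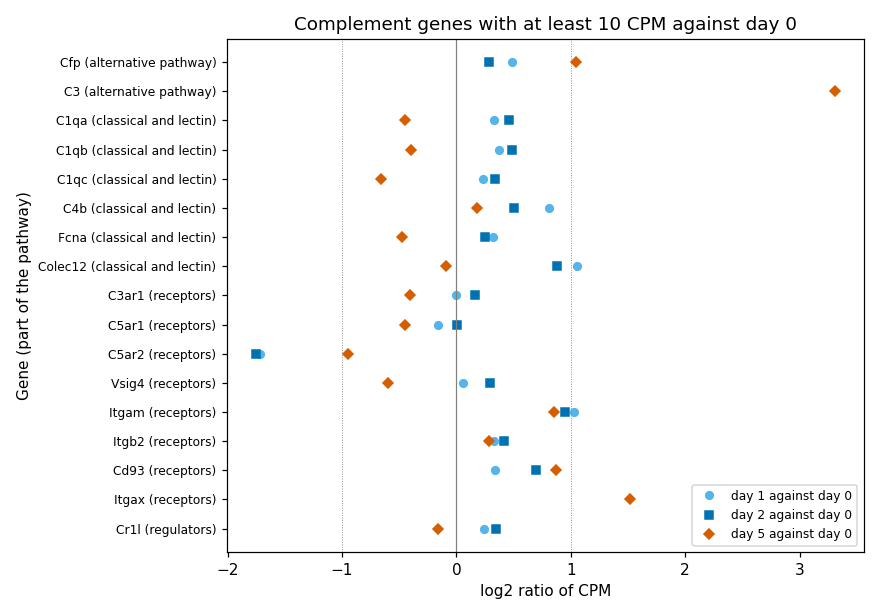
log2 ratio of CPM to day 0 (x axis) of the 17 complement genes with at least 10 CPM on day 5 or day 0 (y axis, with the part of the pathway in brackets) for days 1, 2 and 5 (symbols), with dotted lines at 2-fold; a missing symbol means under 10 CPM in both libraries of that comparison. C3 stands farthest to the right on day 5 (3.31), and C5ar2 farthest to the left at days 1 and 2.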

How the data were processed

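Per the labels' protocols, 17400 sorted synovial cells went into each Chromium 3' v2 run. The deposited values are raw UMI counts of each gene in each barcode, 1 file for each of 4 libraries. The tools named in the submitters' processing notes are R 3.5.2, Seurat 2.3 and Cell Ranger 2.1.0, with the mm10 build, and their roles are not given in the sources used here. Genes found in fewer than 5 barcodes of a library are missing from its file, and an unlisted gene was therefore given no value. Retained barcodes held 4347517, 18373038, 12159063 and 14901661 UMIs at days 0, 1, 2 and 5.

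Barcodes with under 500 genes or at least 10% mitochondrial UMIs were left out. No doublet caller was run, so doublets remain and can place the UMIs of 1 cell in the group of another. UMIs were summed over all retained or marker-positive barcodes (at least 1 UMI of the marker) and divided by the summed UMIs of those barcodes to give CPM. Levels carry exact Poisson, ratios exact conditional Poisson and shares Clopper-Pearson 95% intervals. They cover counting error only. A count of 0 was set to a floor of 3 counts. Ratios were computed over all genes listed in both groups with at least 10 CPM in 1, and 2-fold was counted as higher or lower. No p-value was computed, since each group is 1 library and cells are not replicates. The members, marker genes and lists were chosen with earlier results of these data known. An item of the complement list is not reported here and was left out of its counts. Genes named were the 6 members, complement list genes past 2-fold from day 0, and the 3 genes most like each member, among genes with at least 20 CPM in 1 combination, apart from mitochondrial, ribosomal protein, predicted, Y-linked and Xist genes.

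Alternatives were minimums of 200 and 1000 genes, a 5% mitochondrial limit, leaving out the 1% of barcodes with most UMIs or those with fibroblast or neutrophil marker UMIs, median-ratio scaling, the mean of each barcode's CPM, no filter on low values, markers called with 2 UMIs, after thinning or with no other marker, and shares without thinning. After the data were seen, days 1 and 2 as the reference, bins of marker UMIs, a limit of 5 marker UMIs, and groups split by Plac8 or free of other cells' markers were added. In Poisson counts simulated for 7211 genes (day 5 against day 0), 100% of 200 genes changed 4-fold were recovered. Of unchanged genes 0% were called, and 95.33% of intervals held the true ratio. The draws held no spread between barcodes or libraries, so they do not tell how well the intervals hold in the real counts. Promoter sequences and positions are from RefSeq (GRCm38.p6), where 5 of the 6 members matched, and Cfb was not among them. The work was done in Python 3.11.15, with SciPy 1.17.1, NumPy 2.4.6, matplotlib 3.10.9 and, for tables, pandas 2.3.3.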

Additional observations from a re-analysis of the deposited data

Results flagged for a closer look

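Day ratios of 3 members went opposite ways in different marker groups, with intervals on either side of 1. Each group is 1 library per day, so these differences were not tested.

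For Vsig4 the ratio to day 0 in Sparc-positive barcodes was 1.586 at day 1, 1.625 at day 2 and 1.556 at day 5, while in Plac8-positive barcodes it was 0.4087, 0.4082 and 0.1899. For C3ar1 it was 1.229 at day 1 and 1.24 at day 5 with Sparc, and 0.4641 and 0.402 with Plac8. For Cfp the order was turned: 0.6606 at day 1, 0.7049 at day 2 and 0.8207 at day 5 with Sparc, against 3.488 at day 1 and 5.991 at day 5 with Plac8 and 1.488 at day 2 with H2-Aa. The Plac8 ratios rest on few day 0 UMIs: 3 of Cfp, 17 of C3ar1 and 39 of Vsig4.

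The day 0 Plac8-positive group held 32 barcodes, of which 20 also held Sparc, against 71 of 826 at day 5. On day 0 no other lining gene was 2-fold higher in Sparc-positive barcodes, and all neighbouring marker groups overlapped for C3ar1 and Cfp. The ratios thus set later groups against day 0 groups that were little apart. The part of this, of the shared barcodes and of the shallower day 0 library in these ratios was not tested.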

How the results depend on the processing

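No paired analysis was possible because each day has 1 library. Of the day ratios recomputed, 107 moved by less than their counting interval and 22 by more. None that was past 2-fold went to the other side of 1. A 5% mitochondrial limit kept 14 of 18 day ratios on the same side of 1, the lowest share of the settings. Of day ratios within marker groups 138 moved by less and 136 by more, and of positive to negative ratios 285 and 251. Taking barcodes with no other marker kept 48 of 65 ratios within groups and 90 of 106 positive to negative ratios on the same side of 1. C3 at day 5 was 7.534 to 10.95 times its day 0 level under the alternatives that gave a value, and 6.43 and 6.29 times that of days 1 and 2. With a minimum of 1000 genes, which left 96 barcodes at day 0, C3 had 0 UMIs at day 0 and no value.

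Median-ratio scaling gave day 1 ratios of 1.278 for Cfp, 0.9087 for C3ar1, 0.8154 for C5ar1 and 0.9486 for Vsig4, day 2 ratios of 1.033, 0.9277 and 1.128 for C3ar1, C5ar1 and Vsig4, and day 5 ratios of 0.7079, 0.6877 and 0.6198 for the same. The mean of each barcode's CPM gave 0.8745 and 1.072 for Vsig4 at days 1 and 2, and 0.8255 for C3ar1 and 0.8243 for C5ar1 at day 5. Vsig4 was 1.069 and 1.27 at days 1 and 2 without fibroblast or neutrophil marker barcodes, and at day 5 0.6376 with a minimum of 1000 genes and 0.6985 without the barcodes with most UMIs, which gave 0.7698 for C5ar1. Against day 1, Cfp was 1.471, C5ar1 0.8191 and Vsig4 0.6346 at day 5.

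A minimum of 1000 genes gave 850 genes higher and 482 lower at day 1 (189 and 177 as reported), 848 and 543 at day 2 (203 and 218) and 969 and 647 at day 5 (477 and 248). Median-ratio scaling gave 113 and 130 genes higher at days 1 and 2. Complement genes higher numbered 1 at days 1 and 2 with a minimum of 1000 genes (2 and 0 as reported), 0 at day 1 with median-ratio scaling, 2 at day 2 and 5 at day 5 with no filter on low values, and 1 at day 5 against day 1. Those lower numbered 2 at day 1 with no filter, and 1 at day 5 with each of a minimum of 1000 genes, median-ratio scaling, no filter, and day 1 as the reference. Vsig4 shares without thinning were 67.03%, 45.26%, 54.37% and 33.54%. The causes were not tested. Depth limits Cfb on every day, C3 at day 0 and all members in Plac8-positive barcodes before day 5.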
